A study of Homo sapiens with 4 samples.

Results

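DDX5 and its close relative DDX17 are DEAD-box RNA helicases, enzymes that use ATP to remodel RNA and RNA-protein complexes. Both also sit on chromatin as coactivators of transcription factors, and both are part of the nuclear machinery that processes primary microRNA transcripts. Many genes of RNA-binding proteins are regulated in part by their own products. Fra-1 is a Fos-family protein that pairs with a Jun protein to form AP-1, a transcription factor that binds the letters TGANTCA. The series set out to sort binding events in BT549 cells into those particular to Fra-1 or to DDX5 and those shared by both.

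The members are all listed peaks that overlapped a 40 kb window around the DDX5 gene on chromosome 17 or a 65 kb window around the DDX17 gene on chromosome 22, in hg19. The rule uses position and no measured value. There were 9 of them among 57601 peaks in 4 lists, 3 from DDX5 chromatin immunoprecipitation followed by sequencing (ChIP-seq) and 6 from Fra-1 ChIP-seq. BT549 is an established line of human breast cancer cells without oestrogen receptor alpha, and the cells were untreated. The libraries were 1 of ChIP with antibody to DDX5, 1 of ChIP with antibody to Fra-1, 1 made with rabbit IgG that has no chosen target and 1 of input DNA, which is chromatin sonicated but not immunoprecipitated. The authors listed the peaks of each antibody once against input and once against IgG. With 1 library per antibody no difference could be tested, and intervals cover counting error only. All results below are for 1 cell line grown without treatment. Below, "DDX5 peak" means a peak of the DDX5 ChIP, and the windows are called the DDX5 gene window and the DDX17 gene window.

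RefSeq places both genes on the minus strand, so transcription of each starts at its higher-coordinate end. In gene order, DDX5 lies between POLG2, which encodes the accessory subunit of the mitochondrial DNA polymerase, and CEP95, which encodes a centrosomal protein. The microRNA genes MIR3064 and MIR5047 lie inside DDX5. DDX17 lies between KDELR3, which encodes a receptor that returns proteins to the endoplasmic reticulum, and DMC1, which encodes a meiotic recombinase. These names and this order come from GRCh38.p14. No hg19 annotation or sequence was used here, so which exon, intron or start site a peak covers was not analysed. The windows can hold starts of neighbouring genes as well, so a peak in a window need not belong to DDX5 or DDX17. Below, a peak "at DDX5" or "at DDX17" is one inside that window.

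The start-site sequences of the member genes show which letters lie where transcription begins. They are from RefSeq, GRCh38.p14, minus strand, 250 bases before to 50 bases after the start, written in the direction of transcription. They are not the sequences under the hg19 peaks, and positions were not carried between the builds. Capitals mark TGANTCA (the AP-1 site), CACGTG (the E-box of Myc-type and USF-type factors) and TATAAA (the core of a TATA box). The table holds 3 starts for DDX5, spaced 349 bp and 352 bp apart, and 1 for DDX17. The 2 upstream starts of DDX5, at chr17:64506589-64506888 and chr17:64506240-64506539, and the start of DDX17, at chr22:38506262-38506561, read:

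DDX5 upstream start: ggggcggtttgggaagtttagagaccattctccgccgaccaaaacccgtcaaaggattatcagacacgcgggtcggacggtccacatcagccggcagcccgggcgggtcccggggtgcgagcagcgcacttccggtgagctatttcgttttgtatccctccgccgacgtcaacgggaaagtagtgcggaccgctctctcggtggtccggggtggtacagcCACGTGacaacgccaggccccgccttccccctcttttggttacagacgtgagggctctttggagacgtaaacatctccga

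DDX5 middle start: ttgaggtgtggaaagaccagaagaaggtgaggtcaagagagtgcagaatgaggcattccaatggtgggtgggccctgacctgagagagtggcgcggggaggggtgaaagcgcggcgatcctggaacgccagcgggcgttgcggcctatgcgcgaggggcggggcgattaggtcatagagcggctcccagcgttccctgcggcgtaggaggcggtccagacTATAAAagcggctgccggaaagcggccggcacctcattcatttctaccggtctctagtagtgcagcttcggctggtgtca

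DDX17 start: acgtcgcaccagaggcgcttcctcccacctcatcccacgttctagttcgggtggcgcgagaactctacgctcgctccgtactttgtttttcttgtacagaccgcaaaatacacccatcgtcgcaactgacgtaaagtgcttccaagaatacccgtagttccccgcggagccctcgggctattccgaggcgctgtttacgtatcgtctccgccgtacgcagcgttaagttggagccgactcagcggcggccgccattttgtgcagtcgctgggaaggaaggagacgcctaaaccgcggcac

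None of the 3 DDX5 start windows and not the DDX17 window held TGANTCA, searched on both strands, which 7.71% of the 35116 start windows in the table hold. The upstream DDX5 start had CACGTG from base -30, counted from the start site, a motif that 7.26% of all start windows hold. The middle DDX5 start had TATAAA, also from base -30, and 11.5% of all start windows hold that motif on either strand. The downstream DDX5 start and the DDX17 start held none of these 3. The full cyclic AMP response element, TGACGTCA, present in 1.85% of start windows, was in none of the 4 either. CCAAT, which 34.6% of start windows hold on either strand, was in the middle DDX5 start from base -193. The downstream DDX5 start held it on the opposite strand, as ATTGG from base 27. The start window of CEP95 held CCAAT from base -50. The window of the upstream DDX5 start shares 162 bases with that of CEP95, which is transcribed the other way, and the shared bases are the same letters on opposite strands. Of the 4 neighbours, POLG2 alone had TGANTCA. Its start window (chr17:64497005-64497304, minus strand, GRCh38.p14) begins with these 40 bases, with the AP-1 site from base -244 and a TATAAA from base -220:

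POLG2 start window, first bases: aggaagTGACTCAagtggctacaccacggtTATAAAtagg

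A match is only a run of letters, and a missing match says only that those letters are not in that window. The GC content of the DDX5 start windows was 60.0% to 61.7% and that of the DDX17 window 58.3%, against a median of 58.7% over all start windows.

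In the DDX5 gene window, the peaks of both antibodies fell in the same 2 places, 9.19 kb apart by the DDX5 summits. The place at the higher coordinates, the side on which DDX5 starts, held 2 Fra-1 peaks and 1 DDX5 peak within 1 kb, with the highest folds of the window. The other place held 1 weak peak of each antibody. CEP95, transcribed the other way, also starts on the side where DDX5 starts, so the peaks there cannot be credited to DDX5 alone. The fold is the authors' value and compares the pileup plus 1, the pileup being the number of ChIP fragments stacked over the summit, with the local input level plus 1.

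**Figure D1:**
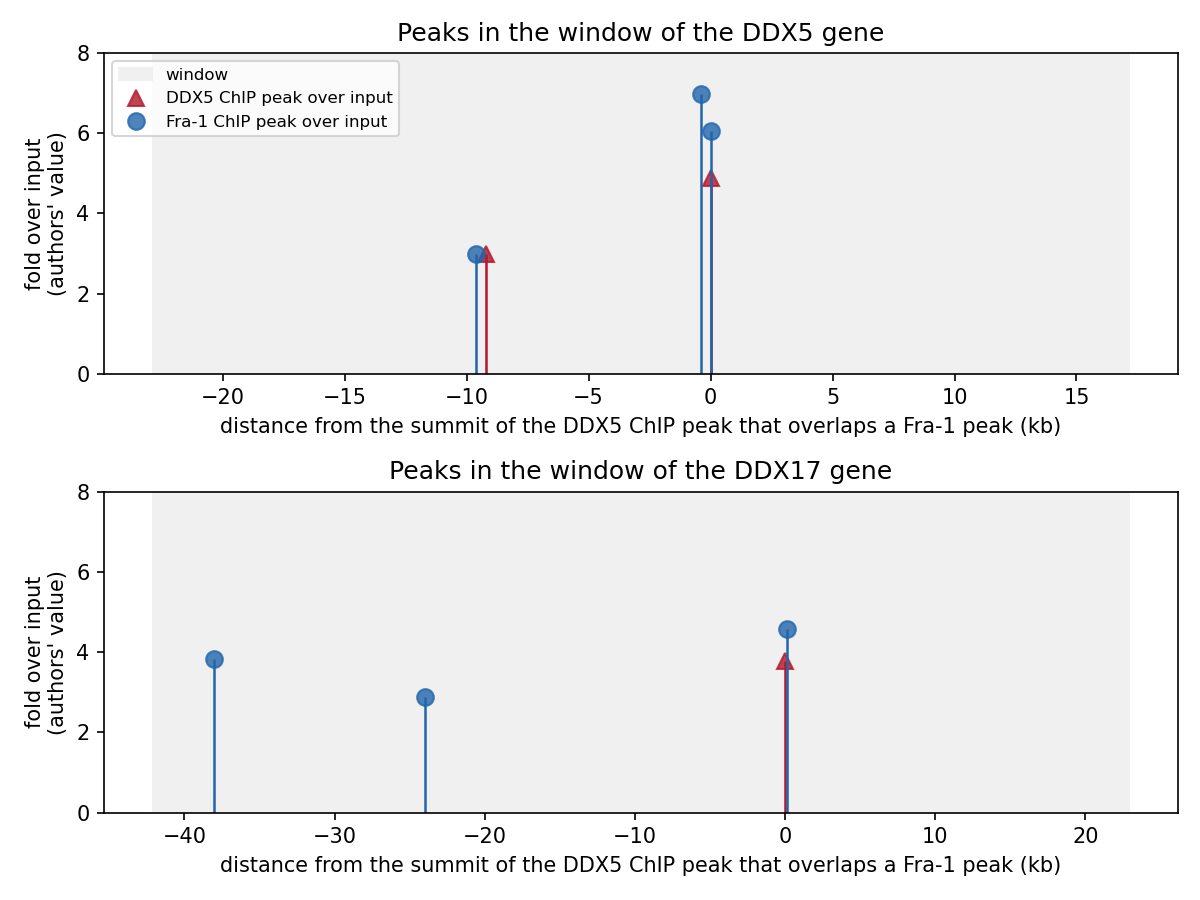
Authors' fold over input (y axis) of each listed peak against its distance in kb (x axis) from the summit of the DDX5 ChIP peak that overlaps a Fra-1 peak, for the windows of the DDX5 gene (top) and the DDX17 gene (bottom). In the DDX5 gene window the peaks form 2 groups, 9.19 kb apart by the DDX5 summits, and in the DDX17 gene window the single DDX5 peak stands beside the Fra-1 peak with the highest fold there.

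The DDX5 peak on the start side spanned 62502784 to 62503231 and was 448 bp wide. Its pileup was 19 fragments (95% exact Poisson interval 11.4 to 29.7), against a local input level of 3.09, which gave 4.89-fold. That fold exceeded 73.9% of the 10836 DDX5 peaks over input, whose median was 4.16. It was the strongest DDX5 peak in either window.

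The Fra-1 peak that overlaps it spanned 62502722 to 62503219. It had a pileup of 25 (16.2 to 36.9) against an input level of 3.29, or 6.06-fold, above 57.7% of the 30571 Fra-1 peaks over input. The peaks shared 436 bp, which is 97.3% of the DDX5 peak and 87.6% of the Fra-1 peak. Their summits, at 62502860 and 62502877, were 17 bp apart. Over all 7062 overlapping pairs of the lists over input, the median summit distance was 79 bp, and 15.1% of pairs were as close as this one or closer.

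The strongest Fra-1 peak at either gene lay next to this shared site and had no DDX5 partner. It spanned 62502252 to 62502599, ended 122 bp before the shared Fra-1 peak began, and had its summit 416 bp from that peak's. Its pileup was 33 (22.7 to 46.3) against an input level of 3.87, or 6.98-fold, above 65% of the Fra-1 list, whose median was 5.37. The nearest DDX5 peak, the shared one, began 184 bp beyond its end. The Fra-1 peaks here thus stood side by side, and DDX5 was listed under the weaker of them. The pileup intervals of the 2 Fra-1 peaks overlap, so their order is within counting error.

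The lower-coordinate place in the DDX5 gene window, on the side towards POLG2, had peaks near the bottom of their lists. In GRCh38.p14 the POLG2 start is at 64497054 and the middle DDX5 start at 64506289. The Fra-1 summits at 62493228 and 62502461 in hg19 have nearly that spacing, so this place may be the POLG2 start. Which gene it belongs to was not tested. The DDX5 peak, at 62493458 to 62493905, had a pileup of 20 (12.2 to 30.9) against an input level of 6.01. This gave 3.0-fold, above 6.14% of the DDX5 list. The Fra-1 peak, at 62493110 to 62493332, had a pileup of 17 (9.90 to 27.2) against an input level of 5.03, or 2.98-fold, above 4.73% of the Fra-1 list. These peaks did not overlap: 125 bp lay between them, and their summits were 440 bp apart. Of the 4136 DDX5 peaks without an overlapping Fra-1 peak, 6.70% had a Fra-1 peak that near or nearer, and the median gap was 5.85 kb.

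The DDX5 pileups at the 2 places, 19 and 20 fragments, were nearly equal. The local input level, computed from pileup and fold, was 3.09 on the start side and 6.01 on the other. The lowest input level at any peak of the DDX5 list was 2.68 and the median 3.83. An input level of 6.01 exceeded that of 82.6% of DDX5 peaks.

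**Figure D2:**
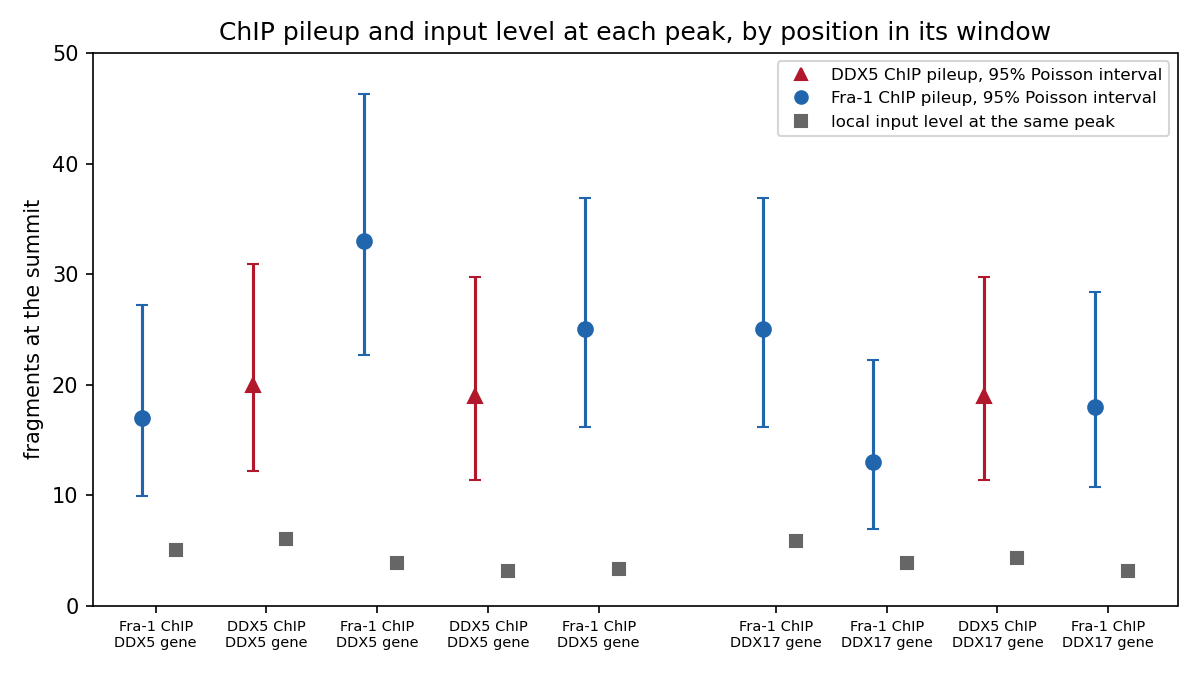
Fragments at the summit (y axis) for each of the 9 peaks, ordered by summit position within each window (x axis): the ChIP pileup with its 95% exact Poisson interval, and the local input level as a square. This level was computed from pileup and fold and is not a count of input fragments at the summit. The ChIP pileups run from 13 to 33 and the input levels from 3.09 to 6.01, and the 3 DDX5 pileups are 19, 20 and 19.

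In the DDX17 gene window, a DDX5 peak and a Fra-1 peak overlapped at 1 place, again the highest-coordinate one. The DDX5 peak, at 38901934 to 38902260, had a pileup of 19 (11.4 to 29.7) against an input level of 4.29. Its fold was 3.78, above 30.0% of the DDX5 list and so below that list's median. The Fra-1 peak, at 38902152 to 38902394, had a pileup of 18 (10.7 to 28.4) against an input level of 3.14, or 4.59-fold, above 37.2% of the Fra-1 list.

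The overlap at DDX17 was smaller than at DDX5. The peaks shared 109 bp, which is 33.3% of the DDX5 peak and 44.9% of the Fra-1 peak, and the summits were 162 bp apart, a distance that 70.1% of all overlapping pairs did not exceed. Neither summit was inside the peak of the other antibody: that of DDX5 was at 38902107 and that of Fra-1 at 38902269.

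Fra-1 had 2 more peaks in the DDX17 gene window, and the nearest DDX5 peak to either lay 23536 bp away. The peak at 38864017 to 38864265, on the side towards KDELR3, had a pileup of 25 (16.2 to 36.9) against an input level of 5.81, or 3.82-fold, above 20.5% of the list. In GRCh38.p14 the KDELR3 start is at 38468096 and the DDX17 start at 38506311. The Fra-1 summits at 38864099 and 38902269 in hg19 have nearly that spacing, so this peak may lie at the KDELR3 start. Which gene it belongs to was not tested. The peak at 38878003 to 38878397 was the weakest of all 9, with a pileup of 13 (6.92 to 22.2) against an input level of 3.87, or 2.87-fold, above 3.48% of the list. Its −log10 q of 1.89 exceeded that of 0.517% of Fra-1 peaks over input. The 3 Fra-1 summits of this window were 14.1 kb and 24.1 kb apart, so they did not crowd as those at the start side of DDX5 did.

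**Figure D3:**
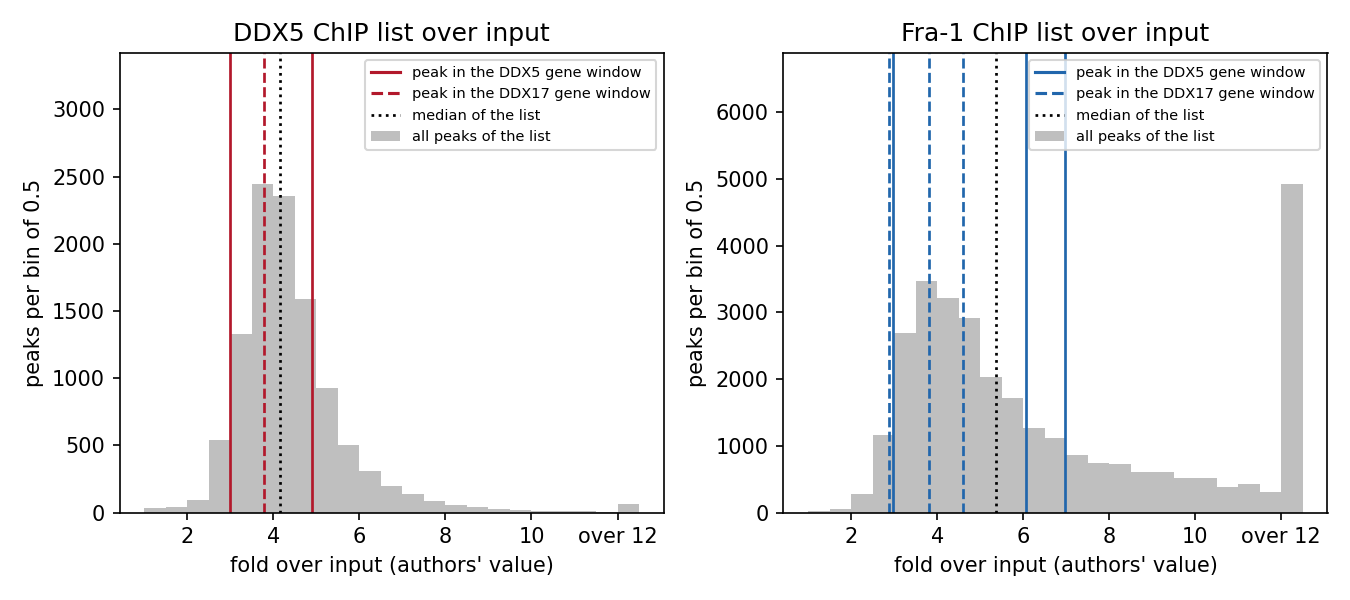
Number of peaks (y axis) per bin of the authors' fold over input (x axis; the last bar pools all folds over 12) in the DDX5 ChIP list (left) and the Fra-1 ChIP list (right), with the peaks of the DDX5 gene window as solid lines, those of the DDX17 gene window as dashed lines and the list's median as a dotted line. The DDX5 peaks stand at 3.0, 3.78 and 4.89 around a median of 4.16, and 4 of the 6 Fra-1 peaks stand below the Fra-1 median of 5.37.

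Put side by side, 1 of the 3 DDX5 peaks and 2 of the 6 Fra-1 peaks exceeded the median fold of their list, and these 3 were the peaks on the start side of DDX5. At least 8-fold was reached by 0 of the 3 DDX5 peaks, against 2.28% of the DDX5 list, and by 0 of the 6 Fra-1 peaks, against 29.5% of the Fra-1 list, so for DDX5 this is the usual case. The 3 DDX5 pileups were 19, 20 and 19, against a list median of 20. The 6 Fra-1 pileups were 13, 17, 18, 25, 25 and 33, against a list median of 30, so 5 of the 6 were below it. The depth of the IgG library, taken from the scaling of the lists, was 0.998 times that of the DDX5 library and 0.884 times that of the Fra-1 library. The DDX5 factor rests on 29 peaks with the same summit in both lists, and the Fra-1 factor on 7973. On the scale of the IgG library, the shared site at DDX5 had 19.0 fragments for DDX5 and 22.1 for Fra-1, and the shared site at DDX17 had 19.0 for DDX5 and 15.9 for Fra-1. The Poisson intervals of the antibodies overlap at both sites.

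A Fra-1 peak over input overlapped 2 of the 3 DDX5 peaks, and 61.8% of the whole DDX5 list. A DDX5 peak overlapped 2 of the 6 Fra-1 peaks, and 21.8% of the whole Fra-1 list. These counts of 2 are too small to set the members apart from their lists. Both antibodies were compared with the same input library, so its values enter both folds at a shared site.

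No peak over IgG was listed in either window, for either antibody. For DDX5, 0 of 3 peaks over input were listed over IgG, and the whole list had 0.508%. Those at 2 to 4-fold had 0.0227% (1 of 4404) and those at 4 to 6-fold 0.167% (9 of 5379), so an absence of DDX5 peaks over IgG is usual at these folds. For Fra-1, 0 of 6 were listed over IgG, against 50.5% of the whole list.

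The share of Fra-1 peaks listed over IgG differed with the fold over input and with whether a DDX5 peak over input overlapped. For the 3 members of 2 to 4-fold without a DDX5 partner, the share in their class was 10.5% (95% exact binomial interval 9.70% to 11.3%). The shared site at DDX17, at 4.59-fold, falls in a class of 4 to 6-fold with a DDX5 partner, of which 4.03% (3.30% to 4.86%) were listed over IgG. The shared site at DDX5, at 6.06-fold, falls in a class of 6 to 8-fold with a partner, of which 18.1% (15.3% to 21.1%) were. The strongest Fra-1 peak, at 6.98-fold and without a partner, differed from most of its class in this respect: 86.6% (85.4% to 87.8%) of the 3303 such peaks were listed over IgG, and this one was among the 13.4% that were not. It has no partner by the 1 bp rule, but a DDX5 peak began 184 bp beyond its end.

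**Figure D4:**
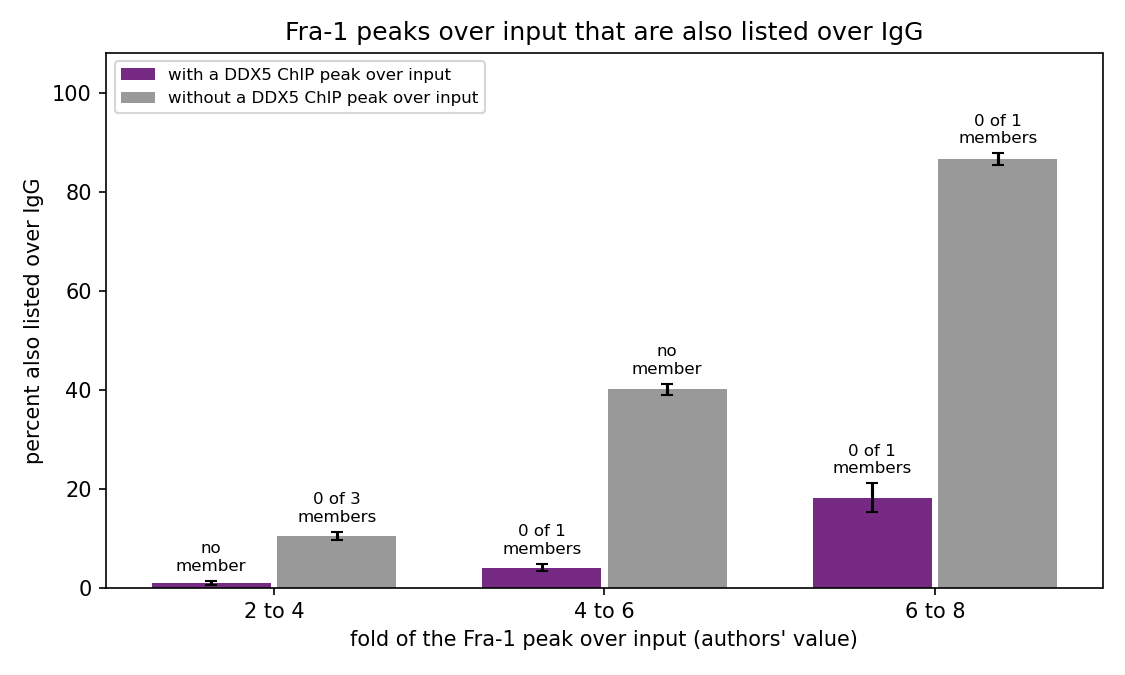
Percent of Fra-1 peaks over input that are also listed over IgG (y axis, bars from 0, with 95% exact binomial intervals) by class of fold over input (x axis), for peaks with and without an overlapping DDX5 ChIP peak, and above each bar how many of the members in that class were listed. None of the 6 members was listed. The one in the class of 6 to 8-fold without DDX5 is among the 13.4% of 3303 such peaks that were not listed, against 86.6% that were.

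The lists over IgG show which folds were listed near the pileups of the members. The pileup of the strongest Fra-1 peak, 33, corresponds to 29.2 fragments on the IgG scale. The Fra-1 list over IgG held 1533 peaks with a pileup within 2 of that, with folds down to 2.07 and IgG levels up to 14.0. At the pileup of the shared Fra-1 peak at DDX5, 22.1 on that scale, 1509 peaks were listed, down to 2.31-fold and up to an IgG level of 9.0. These folds and levels are the extremes near each pileup. Over the whole Fra-1 list over IgG, the medians were 6.82-fold and an IgG level of 5.2. Fewer Fra-1 peaks were listed near the lower pileups: 415 at 15.9, 262 at 15.0 and 16 at 11.5. At 11.5, the lowest fold was 3.35. Near each of the 3 DDX5 members, the DDX5 list over IgG held 2 peaks, with folds from 5.12. Why no member was listed over IgG was not tested. The IgG level at the members themselves is not among the values used here, because the files give one only at listed peaks.

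The windows held more peaks over input than most stretches of their size. When chromosomes 1 to 22 and X were cut into tiles of 40 kb, 8.66% of the 75797 tiles held a DDX5 peak over input and 2.64% held at least 2, as the DDX5 gene window did. At least 1 Fra-1 peak over input was held by 22.6% of these tiles and at least 3, as in the DDX5 gene window, by 4.17%. A Fra-1 peak that overlapped a DDX5 peak was in 6.14%. Over IgG, 13.5% of 40 kb tiles held a Fra-1 peak and 0.0646% a DDX5 peak, and the DDX5 gene window held neither.

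Of the 46641 tiles of 65 kb, 12.7% held a DDX5 peak over input, as the DDX17 gene window did. A Fra-1 peak over input was in 31.3% of them and at least 3, as in the DDX17 gene window, in 8.09%. A Fra-1 peak that overlapped a DDX5 peak was in 9.22%. Over IgG, 19.4% held a Fra-1 peak and 0.107% a DDX5 peak, and the DDX17 gene window held neither. The tiles include stretches without genes and gaps in the assembly, so they are a background of the whole genome and not of expressed genes.

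Outside the windows, the nearest peaks are given by their distance from the window edge. For scale, a 40 kb tile held on average 0.143 DDX5 peaks and 0.404 Fra-1 peaks over input. Over IgG, the averages were 0.000805 and 0.214. Beyond the higher edge of the DDX5 gene window, a Fra-1 peak over input lay 9.42 kb away, at 62529424 to 62529623, with 4.0-fold. The nearest DDX5 peak on that side was 138 kb from the edge, at 62658160 to 62658470, and its 9.15-fold was higher than that of any DDX5 peak at either gene. On the lower side the nearest peaks were a Fra-1 peak 162 kb away (4.11-fold) and a DDX5 peak 254 kb away (4.16-fold). The nearest Fra-1 peaks over IgG lay 172 kb (6.55-fold) below and 99.4 kb (5.77-fold) above the window. The nearest DDX5 peaks over IgG, of the 61 in that list, were 21000 kb below (1.69-fold) and 17700 kb above (3.47-fold).

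Around the DDX17 gene window, the nearest DDX5 peaks over input were 65.1 kb away on the lower side (6.25-fold) and 153 kb away on the higher side (4.10-fold). Both had higher folds than the DDX5 peak at DDX17. The nearest Fra-1 peaks over input were 136 kb (4.97-fold) and 54.5 kb (4.45-fold) away. The second of these, with its summit at 38979639, was also listed over IgG, at 4.28-fold. No DDX5 peak over input overlapped it. Of such Fra-1 peaks at 4 to 6-fold, 40.1% were listed over IgG, against 4.03% of those with a DDX5 partner, as at the shared DDX17 site. On the lower side the nearest Fra-1 peak over IgG was 245 kb away (4.65-fold). The nearest DDX5 peak over IgG was 4090 kb away on the higher side (2.05-fold), and the list had none on the lower side of that chromosome.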

How the data were processed

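DDX5 and Fra-1 ChIP libraries of BT549 cells, 1 each, were analysed as 4 peak lists. Per the submitters' processing notes, CASAVA 1.8, Bowtie 0.12.9, HOMER and hg19 were used, with no step named. The peak caller is not given in the sources used here, and libraries were not pooled. The deposited signal is a pileup, per the file headers. The deposited ratio is a fold enrichment over the local control level, the pileup plus 1 over that level plus 1, from which the level was computed. The deposited −log10 values stand under unreadable headers, and the second column, always below the first, was read as −log10 q. The pileups over IgG are scaled down to the IgG library, and the factors were taken from peaks with the same summit in both lists.

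Total depths are unknown. Pileups have 95% exact Poisson intervals and shares exact binomial ones. A summit is a maximum, and fragments may be PCR copies, so these intervals cover counting error only. Overlap meant at least 1 bp. No test was run, since there is 1 library per antibody. The overlap and tile code was tested on simulated data.

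All peaks in the windows were named, with the nearest outside in each list. The members and lists were chosen with earlier results of these data known. The motifs other than TGANTCA, the neighbours' start windows and the classes of fold were chosen after values were seen. Other DEAD-box genes were not analysed here, for want of an hg19 annotation. The software was scipy 1.17.1, pandas 2.3.3, numpy 2.4.6 and matplotlib 3.10.9 under Python 3.11.15.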

Additional observations from a re-analysis of the deposited data

How the results depend on the processing

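No paired analysis was possible because each antibody has 1 library. Of 48 alternatives to 14 values, 24 left a count within 1.5 times, a share of tiles within its interval, or the same peak as the leading one. Peaks of at least 8-fold, or lists over IgG, left 0 in each window for both antibodies, where the lists over input held 2 DDX5 and 3 Fra-1 peaks (DDX5 gene) and 1 and 3 (DDX17 gene); 2.28% of all DDX5 and 29.5% of all Fra-1 peaks over input reach 8-fold. With only peaks not below the median −log10 q of their list, 1 DDX5 peak was left in the DDX5 gene window, and 0 DDX5 and 0 Fra-1 peaks in the DDX17 gene window. Ranked by −log10 q, the leading Fra-1 peak at DDX17 was the 3.82-fold one, in place of the 4.59-fold one. Overlapping DDX5 peaks, 1 per window, became 2 at DDX5 with centres within 500 bp. They became 0 at DDX17 with an overlap of at least 50% of either peak, with centres at most 100 bp apart, and above the median −log10 q. They became 0 in both windows with both lists, or only Fra-1, over IgG. Above the median −log10 q, the shares of 40 kb tiles became 4.90% (DDX5) and 13.5% (Fra-1), and of 65 kb tiles 7.36% and 19.5%. Stricter thresholds and overlap rules lower counts and shares by construction, the wider rule raises them, and for the lists over IgG the cause was not tested. The overlap at DDX17 thus rests on the 1 bp and 500 bp rules, and that at DDX5 holds under each overlap rule over input.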
